A study of Mus musculus with 12 samples.

Results

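Pericyte and smooth muscle markers are described here across ribosome-bound mRNA libraries of mouse melanoma. The 10 genes Pdgfrb, Rgs5, Cspg4, Notch3, Acta2, Myh11, Tagln, Cnn1, Des and Kcnj8 were taken by symbol from the 24421 gene symbols of the count table, and 10 of 10 were found. The libraries came from subcutaneous tumours of 2 related melanoma lines. B16F10, with 7 libraries, is highly metastatic, and B16F0, with 5, is poorly metastatic. Both lines grew for 12 days in C57BL/6 hosts of the genotype Rpl22fl/flHA;Cdh5(PAC)-CreERT2, and tamoxifen was given to hosts of both groups. In these hosts the Cdh5 promoter drives the tamoxifen-dependent Cre recombinase that switches on an HA-tagged ribosomal protein, Rpl22. The tag is thereby directed to endothelial cells and not to pericytes or smooth muscle, and an untagged cell's mRNA in the precipitate was not told apart from mRNA of tagged cells. The age of the animals and whether each library came from a separate animal are not stated in the labels, so the tests rest on the spread from library to library, which may be technical.

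Pericytes and vascular smooth muscle cells, together called mural cells, wrap the endothelial tube from the outside. Endothelial cells release PDGF-B, which recruits mural cells through the receptor Pdgfrb, and endothelial Notch ligands act on Notch3 of mural cells. Smooth muscle cells contract through a set of actin and myosin genes that serum response factor and its partner myocardin switch on. Acta2, Tagln and Des are also made by other cells, among them activated fibroblasts for Acta2 and Tagln and skeletal muscle for Des.

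The precipitates held endothelial mRNA together with mRNA of the tumour cells: the melanocyte gene Dct had a median of 1148 CPM per kb of exon against 34.6 for Cdh5. Library totals ran from 5322510 to 20569186 counts. An endothelial score, the mean log2 CPM (read counts scaled to 1000000 per library after correction of the totals) of 20 pan-endothelial genes, was at 7.15, 6.58 and 7.23 in B16F10 replicates 4 and 5 and B16F0 replicate 3, and between 4.46 and 5.38 in the other 9 libraries. Libraries ran on lanes 1, 2 and 6, per their names. Lane 2 held B16F10 replicates 1 and 2 and B16F0 replicate 1. In these B16F10 libraries 1494 olfactory, vomeronasal and taste receptor genes, which the tissue should hardly express, added up to 805 and 668 CPM as a gauge of background, against 10.4 to 307 CPM in the other 10. The tests below are therefore also given without lane 2. Library names on lanes 1 and 2 begin with digits that read as dates. B16F10 replicate 3 and B16F0 replicate 2 share such a prefix, and so do B16F10 replicate 4 and B16F0 replicate 3. On lane 2 the prefix of B16F10 replicates 1 and 2 differs from that of B16F0 replicate 1, so prefix and tumour line cannot be told apart there.

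Transcripts of the 10 markers were present in all 12 libraries at low levels, and the cells they came from were not told apart. Per kilobase of annotated exon (CPM per kb), the median over the 12 libraries was 4.73 for Kcnj8, 4.03 for Acta2, 3.03 for Tagln, 1.93 for Pdgfrb, 1.52 for Rgs5, 1.34 for Myh11, 0.950 for Des, 0.691 for Cspg4, 0.629 for Notch3 and 0.0817 for Cnn1. Neighbours in this order often traded places. Kcnj8 exceeded Acta2 in 6 of 12 libraries, Pdgfrb exceeded Rgs5 in 7, Rgs5 exceeded Myh11 in 7, Myh11 exceeded Des in 8 and Cspg4 exceeded Notch3 in 8. Firmer steps were Acta2 over Tagln, in 11 of 12 libraries, and Notch3 over Cnn1, in 12 of 12. The endothelial cadherin gene Cdh5 stood at a median of 34.6 CPM per kb (range 18.7 to 182) and exceeded each of the 10 markers per kb in each of the 12 libraries. The Cdh5 level per kb was 2.26 and 2.61 times that of Pdgfrb in B16F10 replicates 1 and 2, and 11.1 to 94.2 times in the other 10 libraries. Acta2 came nearest to Cdh5 in these B16F10 libraries. There Cdh5 was 1.92 and 1.11 times Acta2, and 4.36 to 40.2 times in the other 10.

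Cnn1, which encodes the smooth muscle protein calponin 1, had 1 to 8 reads in each library and did not pass the filter on low counts. It is described by its values only. Its CPM was 0.119 to 1.28 (median 0.348) in B16F10 and 0.201, 0.121, 0.0853, 0.113 and 0.524 in B16F0 replicates 1 to 5. The highest values, 1.28 and 0.800 CPM, were in B16F10 replicates 1 and 2. Per kb these were 3.15 and 2.37 times the level of the background receptor genes in the same libraries, whereas the other 9 markers stood at 15.5 to 243 times that background there. The other 9 markers passed the filter and were tested among 13534 genes.

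Receptors and surface proteins of pericytes are given first. Pdgfrb, the receptor for PDGF-B (chromosome 18), was at 8.38 to 75.3 CPM in B16F10 (median 14.7) and at 10.3, 10.8, 11.3, 3.55 and 7.86 CPM in B16F0 replicates 1 to 5. The 2 highest values, 75.3 and 69.7 CPM, were in B16F10 replicates 1 and 2, and the other 5 B16F10 libraries, at 8.38 to 16.2 CPM, overlapped B16F0. Rgs5, a regulator of G protein signalling that marks pericytes (GRCm38 chromosome 1, 169655501 to 169695813), ran from 2.81 to 75.8 CPM in B16F10 (median 8.77) and was at 9.57, 5.02, 12.3, 3.10 and 2.62 CPM in B16F0. Here too B16F10 replicates 1 and 2, at 56.3 and 75.8 CPM, stood above the other 10 libraries, whose highest value was 12.3 CPM.

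Cspg4, the proteoglycan NG2 found on pericytes and also known from melanoma (chromosome 9, 56865033 to 56899870), was at 5.93 to 43.3 CPM in B16F10 (median 12.2). In B16F0 it was at 8.16, 5.02, 6.82, 6.88 and 6.92 CPM. B16F10 replicate 3, at 5.93 CPM, lay inside the B16F0 range. Notch3, the Notch receptor of mural cells (chromosome 17, 32120820 to 32166852), was at 3.85 to 34.9 CPM in B16F10 (median 7.30) and at 3.08, 2.00, 4.09, 1.58 and 4.72 CPM in B16F0. B16F10 replicate 6, at 3.85 CPM, overlapped B16F0 replicates 3 and 5, and the other 6 B16F10 libraries were above each B16F0 library.

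The contractile genes overlapped between the tumour lines on lanes 1 and 6. Acta2, smooth muscle alpha actin (chromosome 19, 34241090 to 34255590), ran from 5.72 to 65.8 CPM in B16F10 (median 9.24) and was at 2.94, 8.47, 15.9, 8.12 and 11.8 CPM in B16F0. Myh11, the smooth muscle myosin heavy chain, ran from 6.99 to 30.3 CPM (median 10.9) and was at 3.61, 5.44, 9.89, 8.35 and 22.5 CPM in B16F0. Tagln, the actin-binding protein SM22, ran from 3.99 to 20.4 CPM (median 6.35) and was at 3.41, 5.69, 8.10, 5.64 and 8.49 CPM in B16F0. For all 3 genes the lowest value of B16F0 was that of replicate 1, its library on lane 2, while the highest values of B16F10 were those of replicates 1 and 2 on the same lane. Reads of Acta2 may be shared with other actin genes of near-identical coding sequence, and 108 exonic bases of Tagln overlap Pcsk7 on the opposite strand.

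Des, the muscle intermediate filament desmin, was at 2.12 to 24.8 CPM in B16F10 (median 3.91) and at 7.69, 3.63, 3.16, 2.54 and 2.31 CPM in B16F0. For Des and Cspg4 the highest B16F0 value was that of the lane 2 library. B16F10 replicate 2 stood alone at 24.8 CPM, and in that library the skeletal muscle list of 17 genes summed to 910 CPM against 22.2 to 223 CPM in the other 11. Kcnj8, the pore subunit Kir6.1 of ATP-sensitive potassium channels, had another order. Its highest values, 44.3 and 42.1 CPM, were those of B16F10 replicate 4 and B16F0 replicate 3, and B16F10 replicates 1 and 2 were at 21.5 and 11.6 CPM. The other B16F10 libraries were at 6.16 to 18.5 CPM and the other B16F0 libraries at 6.36, 13.6, 7.39 and 3.35 CPM.

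**Figure D1:**
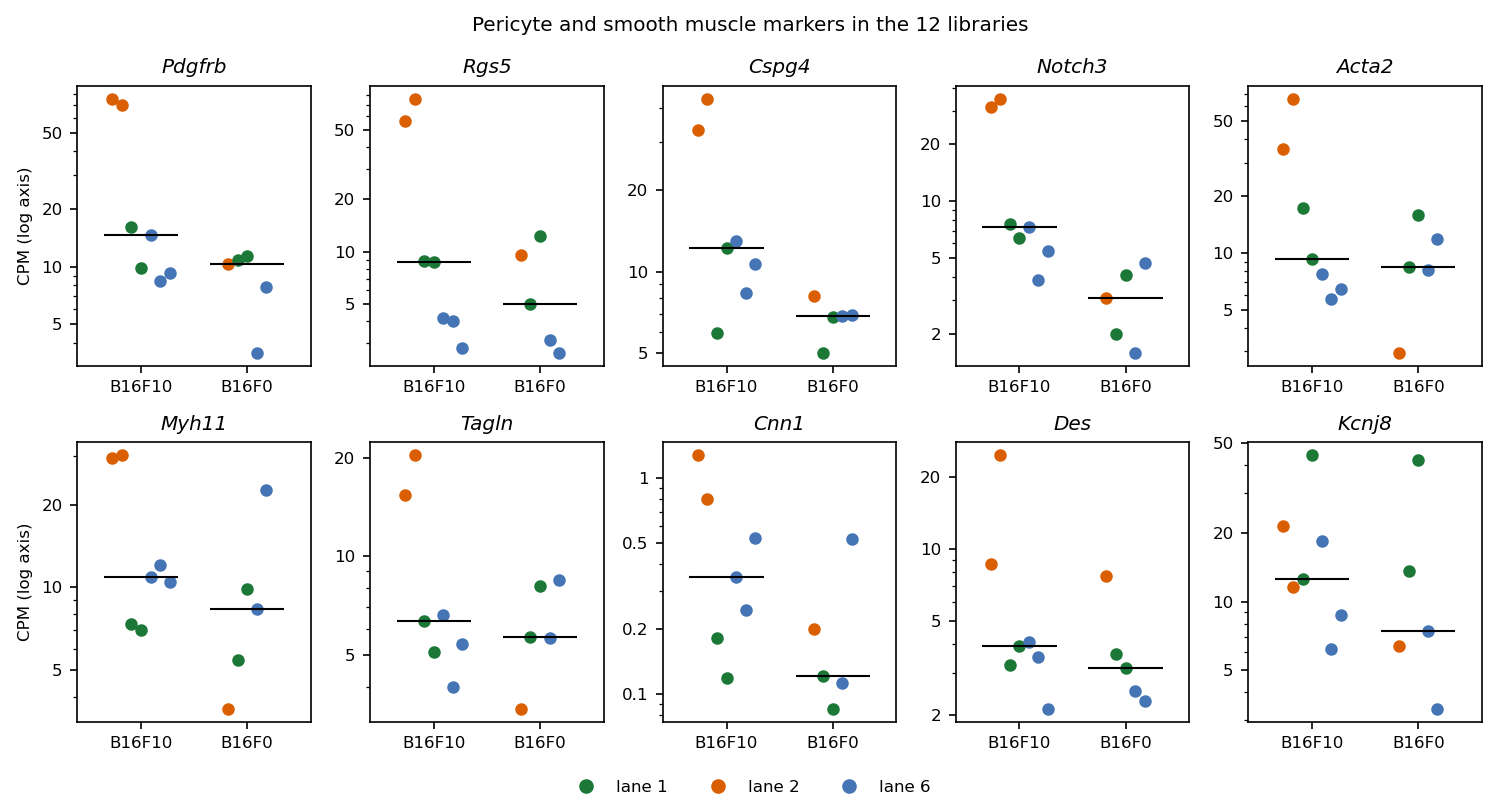
CPM of each marker in each library on a log axis, with B16F10 (7 libraries) on the left and B16F0 (5 libraries) on the right of each panel, points coloured by sequencing lane and a bar at the group median. Both lane 2 libraries of B16F10 are the highest points for every marker but Kcnj8, whose highest points are the lane 1 libraries at 44.3 and 42.1 CPM.

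Both B16F10 libraries of lane 2 exceeded each of the other 10 libraries for 8 of the 9 tested markers, Kcnj8 being the exception, whereas 7.31% of all tested genes showed that pattern. Their mean was 11.6 times that of the other 5 B16F10 libraries for Rgs5, 6.22 times for Pdgfrb, 5.45 times for Acta2, 5.41 times for Notch3, 4.96 times for Des, 3.82 times for Cspg4, 3.26 times for Tagln, 3.13 times for Myh11 and 0.916 times for Kcnj8. In bulk libraries more cells of a type and more RNA per cell cannot be told apart.

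Transcripts of other cells were high in the same B16F10 libraries. The fibroblast list of 13 genes reached a sum of 2238 and 2613 CPM in these libraries, against 213 to 1143 CPM in the other B16F10 libraries and 207 to 925 CPM in B16F0. Of its 12 tested genes 11 were higher in both libraries than in each of the other 10, among them Col3a1 and Col1a1 of the fibrillar collagens, where 7.31% of all tested genes were. The skeletal muscle list summed to 223 and 910 CPM there, against 66.9 to 200 CPM in the other B16F10 libraries and 22.2 to 51.2 CPM in B16F0, and 4 of its 6 tested genes were higher in both than elsewhere. Ttn and Neb made up most of the sum in both. They were at 157 and 38.15 CPM in B16F10 replicate 1 and at 640 and 95.8 CPM in replicate 2. In replicate 1 Ckm was at 0, Tnnt3 at 0.481, Acta1 at 1.28 and Myh1 at 5.29 CPM. In replicate 2 these 4 were at 1.9, 7.9, 18.8 and 25 CPM. In the other B16F10 libraries Ttn was at 52.8 to 175.5 CPM. There Ckm was at 0 to 0.242, Tnnt3 at 0 to 0.182, Acta1 at 0.197 to 1.27 and Myh1 at 0.148 to 1.74 CPM. In B16F0 these 4 were at 0 to 0.335, 0 to 1.81, 0.210 to 4.62 and 0.0605 to 2.01 CPM. The Acta1 value of 4.62 CPM was that of B16F0 replicate 1. The most abundant gene of the list, Ttn, encodes the giant sarcomere protein titin and was higher in B16F10, at 191 ± 202 CPM (SD, n = 7) against 18.4 ± 5.11 CPM in B16F0 (SD, n = 5). The log2 difference of Ttn was 2.89 ± 0.51 (SE; edgeR adjusted p = 0.00791), and without lane 2 it was 2.46 (adjusted p = 0.00655). Macrophage genes did not share this, at 113 and 165 CPM for 9 genes within a range of 29.0 to 267 CPM over the other 10 libraries. The keratinocyte list of 7 genes summed to 8.98 and 6.90 CPM against at most 3.69 CPM, and 0 of its genes passed the filter on low counts. The melanocytic list of 10 genes stayed inside the range of the others, at 10800 and 12550 CPM within 8566 to 18470 CPM, and its gene Oca2, which encodes a melanosome protein, was lower in B16F10 by -1.10 ± 0.17 on the log2 scale (SE; edgeR adjusted p = 0.00379). The adipocyte list (11.7 and 8.40 CPM) and the T cell list (4.33 and 2.80 CPM) stayed inside the range of the other 10 libraries, 3.303 to 17.3 and 0.395 to 7.56 CPM. None of the genes found of these lists was at 0 in all 12 libraries. The part of these cells in the marker levels was not tested, and a fit with the background reads as a covariate is given with the comparison of the tumour lines.

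**Figure D2:**
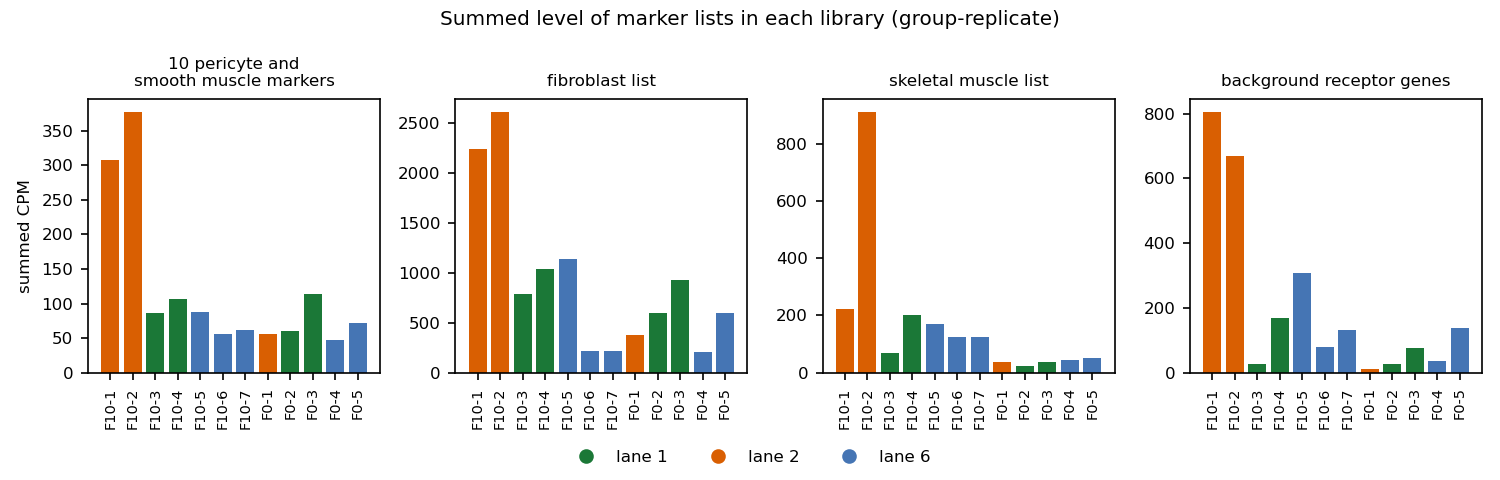
Summed CPM (linear axis from 0) of the 10 markers, of the fibroblast list, of the skeletal muscle list and of the background receptor genes in each library, coloured by lane. B16F10 replicates 1 and 2 hold the 2 tallest bars of each panel, while B16F0 replicate 1 on the same lane, at 10.4 CPM, holds the lowest background.

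The comparison of the tumour lines asked which transcripts of the precipitates differ with metastatic potential. The groups overlapped for each of the 10 markers, where 2.73% of tested genes did not overlap. No marker passed: 0 of 9 had an adjusted p under 0.05 in edgeR's quasi-likelihood test with lane in the fit, where 2.77% of 13534 genes did and 1.3% were called higher in B16F10. At an unadjusted p under 0.05 there were 3, Pdgfrb, Cspg4 and Notch3, each higher in B16F10, where 14.8% of all genes passed in either direction and 7.13% as higher. Notch3 differed by 1.49 ± 0.43 on the log2 scale (SE; edgeR adjusted p = 0.0941), with a mean of 13.9 ± 13.3 CPM over the B16F10 libraries (SD, n = 7) and of 3.09 ± 1.33 CPM over those of B16F0 (SD, n = 5). Cspg4 differed by 0.95 ± 0.29 (SE; edgeR adjusted p = 0.116) and Pdgfrb by 1.05 ± 0.37 (SE; edgeR adjusted p = 0.188). The 95% intervals were 0.56 to 2.41 for Notch3, 0.33 to 1.58 for Cspg4 and 0.24 to 1.86 for Pdgfrb.

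The other 6 markers had intervals that held 0. Log2 fold changes were 0.72 ± 0.40 for Rgs5, 0.72 ± 0.45 for Kcnj8, 0.46 ± 0.30 for Des, 0.36 ± 0.56 for Acta2, 0.25 ± 0.46 for Myh11 and 0.15 ± 0.39 for Tagln (SE; edgeR adjusted p from 0.451 to 0.911). A 2-fold difference lay inside each of these intervals but that of Tagln, whose upper end was 0.99. The median over the 9 markers was 0.72, against 0.019 over all tested genes. The authors' deposited table lists 9 of the markers, and 0 of them pass an adjusted p of 0.05, where 3.24% of its genes do. Its log2 fold changes were 1.53 for Notch3 and 0.92 for Cspg4.

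The calls of Notch3 and Cspg4 depended on the tool and on single libraries. DESeq2 called both (adjusted p = 0.00818 and 0.0266), where it called 6.30% of genes, and limma-voom called Notch3 (log2 fold change 2.11, adjusted p = 0.0126), where it called 2.79%. Without B16F0 replicate 5 edgeR called Notch3 (1.95, adjusted p = 0.0348), and without B16F10 replicate 3 it called Cspg4 (1.13, adjusted p = 0.0437). Over the 28 other settings tried, the adjusted p of Notch3 ran from 0.00818 to 0.356 and that of Cspg4 from 0.0266 to 0.487.

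Without lane 2 the differences were smaller, and 0 of 9 markers passed, where 1.32% of genes did. The log2 fold change of Notch3 was then 1.02 ± 0.38 (SE; edgeR adjusted p = 0.353), that of Cspg4 0.63 ± 0.26 (0.445), that of Pdgfrb 0.61 ± 0.31 (0.588), that of Rgs5 0.21 ± 0.30 (0.910), that of Des 0.27 ± 0.29 (0.869) and that of Kcnj8 0.55 ± 0.53 (0.836). Acta2, Myh11 and Tagln changed sign, to -0.25 ± 0.29, -0.28 ± 0.30 and -0.33 ± 0.25 (SE; edgeR adjusted p = 0.878, 0.860 and 0.788). Leaving out B16F0 replicate 1 repeats that comparison by construction, since it is the B16F0 library of lane 2. At an unadjusted p under 0.05 Notch3 and Cspg4 were higher in that fit, where 5.14% of genes were. The count of positive fold changes went from 9 of 9 markers to 6 of 9 without lane 2, where the share over all genes was 52.5% and 56.1%.

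The same estimates were lower with a term for the background reads. On lane 2 the background sum was 805 and 668 CPM in B16F10 and 10.4 CPM in B16F0. That term therefore overlaps with tumour line, and the 2 cannot be told apart there. With the log2 sum of the background receptor genes as a covariate, a fit chosen after seeing the data, Notch3 had a log2 difference of 0.88 (edgeR adjusted p = 0.195), Pdgfrb 0.53 (0.444), Cspg4 0.33 (0.487), Des 0.20 (0.840) and Rgs5 0.13 (0.891). Those of Kcnj8, Acta2, Myh11 and Tagln were -0.11, -0.15, -0.34 and -0.42 (edgeR adjusted p from 0.553 to 0.943). Notch3 was the 1 of 9 markers with an unadjusted p under 0.05 in that fit. With the name prefix in place of lane, also chosen after seeing the data, 0 of 9 markers passed, where 4.65% of genes did. Notch3 then differed by 1.05 and Cspg4 by 0.58 (edgeR adjusted p = 0.11 and 0.0971).

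**Figure D3:**
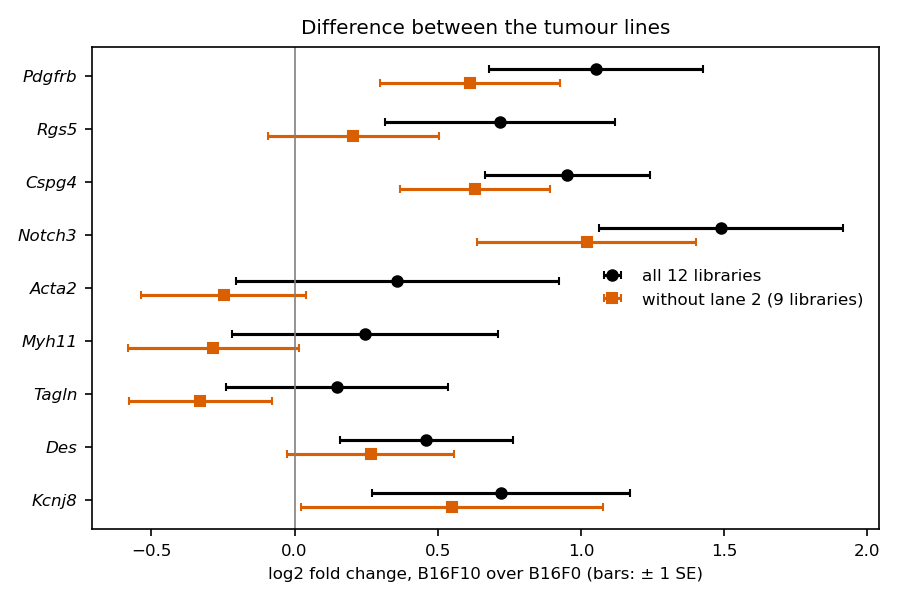
Log2 fold change of B16F10 over B16F0 for each tested marker, with bars of ± 1 SE, from all 12 libraries (black circles) and from the 9 libraries of lanes 1 and 6 (orange squares). Without lane 2 Acta2, Myh11 and Tagln lie left of 0 and Notch3 stays farthest to the right, at 1.02.

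Within lanes the difference between tumour lines was uneven. The mean log2 CPM of Acta2 was higher in B16F10 by 3.99 on lane 2 and by 0.12 on lane 1, and its difference was -0.57 on lane 6. Rgs5 had differences of 0.16, 2.76 and 0.33 on lanes 1, 2 and 6, and Pdgfrb of 0.18, 2.80 and 0.97. Notch3 was above B16F0 on each lane, by 1.26, 3.39 and 0.94. Lane 2 held 1 B16F0 library, so its differences have no spread on that side. In a test of the interaction between tumour line and lane 0 of 9 markers passed (edgeR adjusted p from 0.313 for Acta2 to 0.845 for Kcnj8), and 0% of all genes did. At an unadjusted p under 0.05 there were 7 markers, where 7.68% of genes passed, but with the background reads as a covariate there was 1. DESeq2 called Acta2, Myh11 and Tagln in that test, where it called 0.465% of genes. Without the 3 libraries of highest endothelial score edgeR called 7 markers and 18.0% of genes.

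Between lanes, with tumour line in the fit, 4 of 9 markers passed against 3.14% of all genes: Rgs5 (edgeR adjusted p = 0.0222), Des (0.0245), Pdgfrb (0.0347) and Cspg4 (0.046). Lane 2 stood above lane 1 by 2.11, 1.84, 1.63 and 1.599 on the log2 scale for these genes. That difference was not seen in the B16F0 libraries for Pdgfrb, at 10.3 CPM on lane 2 and 10.8 and 11.3 CPM on lane 1, or for Rgs5, at 9.57 CPM against 5.02 and 12.3 CPM. Des, at 7.69 CPM against 3.63 and 3.16 CPM, and Cspg4, at 8.16 CPM against 5.02 and 6.82 CPM, were higher on lane 2 there too. Lane calls over all genes, those of the markers included, moved with single libraries. Without any 1 of B16F10 replicates 1, 2, 6 and 7 or B16F0 replicate 5 the count was 0, where at most 0.0149% of genes passed, and 6 to 7 markers had an unadjusted p under 0.05. It was 1 without B16F0 replicate 2 (0.116% of genes), 2 without B16F10 replicate 3 (1.1%) or B16F0 replicate 4 (0.472%), and 8 without B16F0 replicate 1 (16.4%). Between lanes 1 and 6 alone Rgs5 and Kcnj8 passed (edgeR adjusted p = 0.0234 and 0.0443), where 14.6% of genes did. Lane cannot be told apart from other differences between the libraries run on it.

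Endothelial content, the other measure that varied widely, moved with Kcnj8. The slope of Kcnj8 on the endothelial score was 0.81 ± 0.17 log2 units per unit of score (SE; 95% interval 0.45 to 1.17; edgeR adjusted p = 0.0119), with tumour line and lane in the fit. It was the 1 of 9 markers that passed with a positive slope, where 4.51% of all genes did, and 0 of 9 passed with a negative slope, where 0.517% did. For scale, the 20 pan-endothelial genes, which define the score, had a median slope of 1.04. Without lane 2 the slope of Kcnj8 was 0.84 ± 0.12 (SE; edgeR adjusted p = 0.00143), and it was again the 1 marker that passed as positive, where 6.5% of genes did.

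The call rested on single libraries, though the slope stayed between 0.67 and 1.01 in the 27 other settings. It held without B16F10 replicate 4 or 5, both rich in endothelial mRNA. It was lost without B16F0 replicate 3, also rich (0.68, edgeR adjusted p = 0.103), and without B16F10 replicate 3, which is not (0.68, 0.0997). In these fits 2.64% and 2.79% of genes passed. Without the 3 libraries of highest score the slope was 0.77 and 0 of all genes passed. The 2 libraries with the most Kcnj8 share a name prefix, and with the prefix in place of lane the slope was 0.73 (edgeR adjusted p = 0.0425). The other 8 markers had slopes from -0.073 for Acta2 to 0.27 for Rgs5 (edgeR adjusted p from 0.43 to 0.995). Their 95% intervals ended below 1, the slope of a gene that changes in step with the score. The highest upper end was 0.80, for Rgs5, and Pdgfrb had an interval of -0.47 to 0.47. A difference in slope between Kcnj8 and another marker was not tested.

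**Figure D4:**
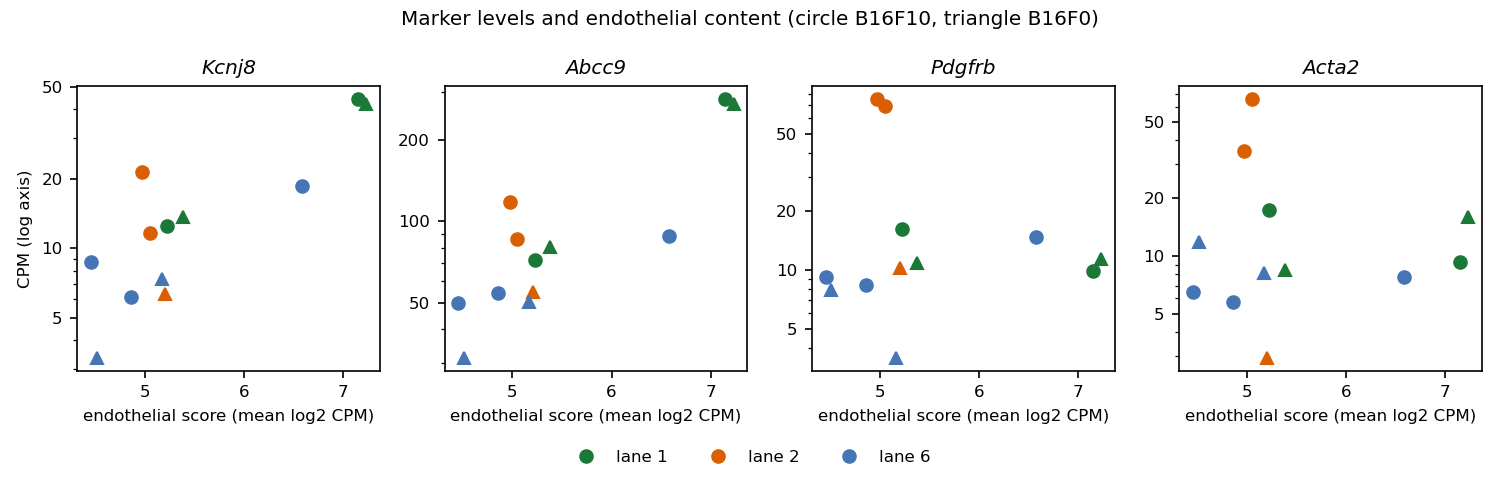
CPM on a log axis of Kcnj8, Abcc9, Pdgfrb and Acta2 against the endothelial score (mean log2 CPM of 20 genes) in the 12 libraries, circles for B16F10 and triangles for B16F0, coloured by lane. Kcnj8 and Abcc9 are highest in the libraries with scores of 7.15 and 7.23, while Pdgfrb and Acta2 are highest in the lane 2 libraries of B16F10, with scores of 4.97 and 5.05.

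Abcc9, which encodes the sulfonylurea receptor subunit that assembles with Kir6.1, moved in the same way. Kcnj8 lies on chromosome 6 from 142564837 to 142571614 and Abcc9 from 142587862 to 142702315 in GRCm38 (mm10), on the same strand and 16247 bases apart. Abcc9 was at 49.97 to 284 CPM in B16F10 and at 54.7, 80.2, 272, 50.5 and 31.3 CPM in B16F0. As for Kcnj8, its highest libraries were B16F10 replicate 4 and B16F0 replicate 3. Its slope was 0.75 ± 0.14 (SE; edgeR adjusted p = 0.0058), lost without B16F10 replicate 3 (0.60, adjusted p = 0.0556). With the name prefix in place of lane it was 0.47 (edgeR adjusted p = 0.029). Mcam, the adhesion molecule CD146 of both pericytes and endothelium, had a slope of 0.73 ± 0.077 (SE; edgeR adjusted p = 9.4e-05).

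**Figure D5:**
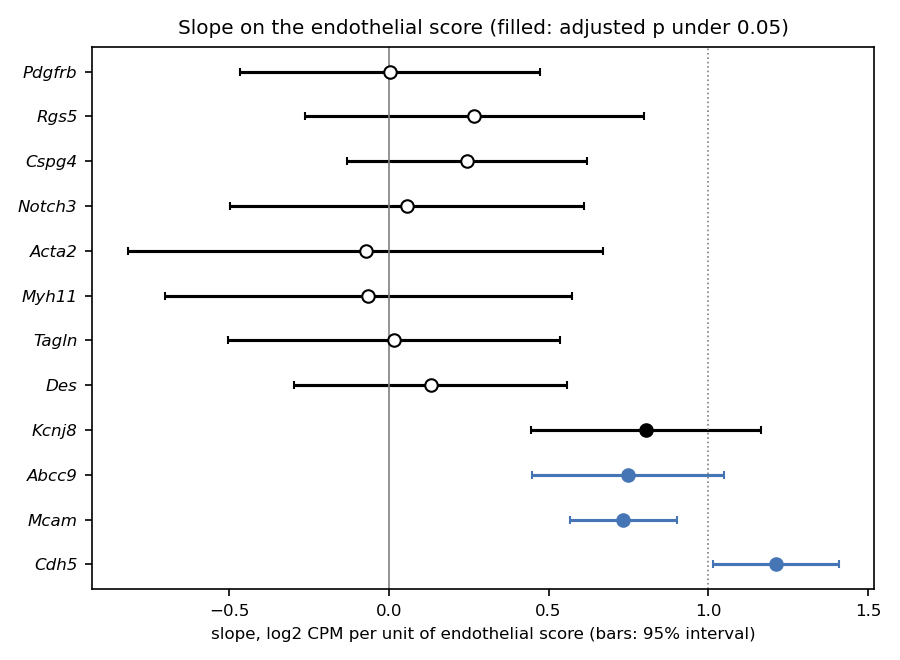
Slope of log2 CPM on the endothelial score with 95% intervals, for the 9 tested markers (black) and for Abcc9, Mcam and Cdh5 (blue), filled where edgeR's adjusted p was under 0.05, with lines at 0 and 1. Kcnj8, at 0.81, lies beside Abcc9 and Mcam, and the intervals of the other 8 markers hold 0.

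The start regions of Acta2 and Kcnj8 are shown because these markers had the contrasting patterns across libraries, and because the CArG box, the element that serum response factor binds, is a known feature of contractile genes. Windows of 250 bases before to 50 bases after the RefSeq start were found for 7 of the 10 markers (GRCm38.p6; Pdgfrb, Myh11 and Tagln were not matched). The CArG box was searched with at most 1 of its 6 inner bases other than A or T, and it reads the same way on both strands. Acta2 was the 1 of 7 with a match, against 9.98% of all 32851 windows, and it had 2 matches, as 0.822% of windows did. They start 84 and 34 bases before the start site. With no other base allowed 0 of the 7 windows matched, and 1.63% of all windows did. The short sequence TGGGAA, the core of sites of the Notch partner Rbpj, was found on either strand in 25.6% of windows. Of the 7 markers Acta2 had it once, overlapping the second CArG match, and Kcnj8 had it once, at its start site. Capitals mark the CArG matches in Acta2 (chr19:34255324-34255623, minus strand) and TGGGAA in Kcnj8 (chr6:142571565-142571864, minus strand), both written 5′ to 3′. A match is a description of the letters and not of a bound site.
Acta2: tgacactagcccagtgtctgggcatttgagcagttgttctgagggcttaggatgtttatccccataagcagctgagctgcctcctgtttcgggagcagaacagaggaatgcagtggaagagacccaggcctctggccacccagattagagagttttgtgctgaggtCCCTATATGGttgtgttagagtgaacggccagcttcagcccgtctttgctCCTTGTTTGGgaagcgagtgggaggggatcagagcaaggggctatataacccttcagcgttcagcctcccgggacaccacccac
Kcnj8: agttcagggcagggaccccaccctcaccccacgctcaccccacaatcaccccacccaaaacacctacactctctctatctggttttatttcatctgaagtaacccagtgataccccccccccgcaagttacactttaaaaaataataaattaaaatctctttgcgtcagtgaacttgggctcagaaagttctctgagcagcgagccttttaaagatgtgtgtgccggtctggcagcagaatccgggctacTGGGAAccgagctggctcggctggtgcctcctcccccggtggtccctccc

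The markers varied together in groups. Correlations are Pearson's r of log2 CPM after tumour line and lane were fitted, over 12 libraries that differ in depth, background and endothelial content, and they are descriptions. Acta2, Myh11 and Tagln had r of 0.92 to 0.97 with each other, and of 0.64 to 0.81 over the 9 libraries without lane 2. Notch3 had r of 0.92 with Tagln, and 0.94 without lane 2. Pairs with Des had r of 0.065 to 0.49, and of -0.31 to 0.38 without lane 2. Pairs with Kcnj8 had r of 0.065 to 0.61, and of -0.13 to 0.86 without lane 2, where Cspg4 with 0.86 and Rgs5 with 0.60 were highest. Over all 36 pairs the median r was 0.71, and 0.30 without lane 2, so much of the shared variation of the markers lay between the libraries of lane 2.

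Against summed lists of other cells, also as residual r, Pdgfrb, Rgs5, Cspg4, Notch3, Acta2, Myh11 and Tagln had 0.64 to 0.85 with the fibroblast list and 0.73 to 0.93 with the background receptor genes. Without lane 2 these ranges were 0.31 to 0.77 and 0.098 to 0.87. Des had 0.44 with the fibroblast list and 0.32 with the background, and Kcnj8 had 0.40 and 0.55. With the pan-endothelial list Kcnj8 had 0.83, or 0.90 without lane 2. Cspg4 had 0.48 and Rgs5 0.31 with that list, or 0.86 and 0.72 without lane 2. With the skeletal muscle list r was highest for Cspg4, at 0.85, and Des, at 0.73, or 0.90 and 0.23 without lane 2. With the melanocytic list r was lowest for Kcnj8, at -0.86, and Cspg4, at -0.66, or -0.85 and -0.88 without lane 2. The genes outside the list with the highest r were Mctp1 and Dnajc24 for Pdgfrb (0.98 and 0.96), Ythdc1 and Rapgef2 for Rgs5 (0.96 and 0.96), Adamts10 and Mmp16 for Cspg4 (0.96 and 0.96) and Ppargc1b and Slit3 for Notch3 (0.95 and 0.93). For Kcnj8 they were Nova2 and Itih5 (0.95 and 0.95), for Myh11 Tsr1 and Snora33 (0.94 and 0.94), and for Des Fam111a and Socs4 (0.91 and 0.88). Acta2 and Tagln had the small nucleolar RNA genes Snora33 and Snord82 in common (0.95 and 0.94 for Acta2, 0.96 and 0.97 for Tagln). Without lane 2 these were 0.82 and 0.51 for Acta2 and 0.91 and 0.78 for Tagln. Des with Socs4 was then at 0.64, and the other pairs named here were at 0.82 to 0.97.

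Other genes of the mural pathways were read from lists. Of 14 further genes of a smooth muscle list, not all of them contractile, 14 were tested, and 1 rose and 0 fell. This was Mylk, the myosin light chain kinase gene, at 145 ± 11.2 CPM in B16F10 (SD, n = 7) and 98.8 ± 24.4 CPM in B16F0 (SD, n = 5). The difference was 0.60 ± 0.15 on the log2 scale (SE; edgeR adjusted p = 0.0483). That call was lost in 19 of 28 other settings, among them the fit without lane 2 (0.63, adjusted p = 0.202) and each fit without 1 library except B16F10 replicate 3 and B16F0 replicate 3 (adjusted p from 0.0638 to 0.199). The median over the list was 0.51, and 0.083 without lane 2. Tpm1 and Csrp1, the most abundant of the list and genes of actin filament proteins, differed by 0.46 ± 0.14 and -0.26 ± 0.15 (SE; edgeR adjusted p = 0.117 and 0.481). Of these 14 genes 6 were higher in both lane 2 libraries of B16F10 than in the other 10, against 7.31% of tested genes. On the endothelial score 2 of 14 passed as positive, against 4.51% of genes. They were Smtn (slope 0.44, edgeR adjusted p = 0.0369) and Sncg (1.28, 0.00778). The call of Smtn was lost in 13 of 27 other settings, and its slope was -0.21 without the 3 libraries of highest score. That of Sncg was lost in 4 of 27, and its slope ran from 0.087 to 1.71 over these settings.

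Of 19 further pericyte genes 15 were tested, and 0 rose or fell between the tumour lines. At an unadjusted p under 0.05 there were 5 of 15, against 14.8% of genes, and the median log2 fold change was 0.60, or 0.22 without lane 2. Of the 15 tested genes 9 were higher in both lane 2 libraries of B16F10 than in the other 10, against 7.31% of tested genes. Gucy1a3, a subunit of the nitric oxide receptor of smooth muscle, named after its values were seen, stood at 15.9 and 17.1 CPM there and at 0.338 to 1.74 CPM elsewhere. On the endothelial score 2 of 15 passed as positive, Abcc9 and Mcam, against 4.51% of genes, and the median slope of the list was 0.10.

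Genes of the signals between endothelium and mural cells did not pass between the tumour lines with lane in the fit. Of 5 PDGF genes tested 0 passed between the tumour lines, where Pdgfra, the PDGF receptor of fibroblasts, differed by 1.55 ± 0.40 (SE; edgeR adjusted p = 0.0639). Of these 5 genes 2 passed with positive slopes on the endothelial score, where 4.51% of all genes did. They were the ligand genes Pdgfb (1.18 ± 0.16, SE; edgeR adjusted p = 0.000714) and Pdgfd (0.92 ± 0.16, SE; 0.00445). The call of Pdgfd was lost in 4 of 27 other settings. Pdgfb was at 10.9 to 85.6 CPM in B16F10 and at 12.9, 14.6, 82.8, 18.1 and 20.6 CPM in B16F0. Its highest libraries were the 3 of highest endothelial score, unlike those of its receptor gene Pdgfrb, and without these 3 its slope was -0.12. Of 11 genes of Notch ligands, partners and targets 0 passed between the lines. Slopes on the endothelial score passed as positive for 6, Jag2, Dll1, Dll4, Notch1, Hes1 and Hey1, where 4.51% of all genes did. With the endothelial score also in the fit, the ligand gene Jag1 (0.68, edgeR adjusted p = 0.0441) and Pdgfra (1.56, 0.0498) passed as higher in B16F10. In that fit 3.89% of genes passed. Without lane 2 neither passed (edgeR adjusted p = 0.376 and 0.322). Notch1, a receptor of endothelial cells among other types, had a slope of 0.85 ± 0.079 (SE; edgeR adjusted p = 3.8e-05), where Notch3 had one of 0.057 with a 95% interval of -0.50 to 0.61. Notch2, the most abundant Notch gene of the list, differed by 0.20 ± 0.15 between the lines (SE; edgeR adjusted p = 0.588). Of the 4 serum response factor and myocardin genes 3 were tested and 0 passed in either test, with Srf at 0.079 ± 0.20 and its partner gene Mkl2 at -0.12 ± 0.13 between the lines (SE; edgeR adjusted p = 0.906 and 0.736). Myocd, encoding myocardin, did not pass the filter, and was at 3.69 and 2.80 CPM in B16F10 replicates 1 and 2 and at 0 to 0.711 CPM elsewhere.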

How the data were processed

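The authors deposited a table of raw read counts per gene symbol for 12 libraries (ScriptSeq kit, per the labels), with 0 columns left unmapped. Per the submitters' processing notes, the tools were R 3.3.2, edgeR, featureCounts 1.6.0, STAR 2.2.1 and cutadapt 1.16, on mm10. Their settings, annotation and use of strand are not given in the sources read. Fold changes and adjusted p of the authors' deposited table are named as such, and their normalised table was not used.

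The counts were filtered with edgeR's filterByExpr (minimum count 10), scaled by TMM and tested with edgeR 4.0.16 (quasi-likelihood, R 4.3.3) over all 13534 genes passing, with Benjamini-Hochberg adjustment and a threshold of 0.05. Fits held lane, read from the library names, and tumour line, and, for slopes, the endothelial score (prior count of 1). Lane differences are of mean log2(CPM + 0.1). The biological coefficient of variation was 0.318. DESeq2 1.42.0, limma-voom (limma 3.58.1), other scalings and filters, and fits without single libraries or lane 2 were the alternatives.

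Gene positions and exon lengths came from GENCODE M21 (GRCm38), which held 95.7% of the symbols. No pair of libraries of a group agreed within counting noise, by chi-square per degree of freedom. The lowest value, 7.07, was that of B16F10 replicates 1 and 2, which share lane 2 and a name prefix. The next lowest was 25.8, for B16F10 replicates 6 and 7. The 10 markers and the gene lists were chosen with earlier results of these data known. The rule for genes outside the markers took those of a list called between the tumour lines, the 2 of highest mean CPM of a list (given here for the mural, fibroblast and skeletal muscle lists where a result turns on them), Cdh5 and Dct, and the 2 most alike to a marker (residual r among 10128 genes with a mean CPM of at least 5). Genes named for their slope alone, Gucy1a3, Myocd and the motifs were chosen after values were seen.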

Additional observations from a re-analysis of the deposited data

Results flagged for a closer look

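Single libraries stood apart from the rest of their tumour line for 3 markers and 1 list, by the gap to the nearest library divided by the range of the group (Dixon's 95% critical value). Kcnj8 was at 44.3 CPM in B16F10 replicate 4 and at 42.1 CPM in B16F0 replicate 3, the libraries with endothelial scores of 7.15 and 7.23. Des was at 24.8 CPM in B16F10 replicate 2 and at 7.69 CPM in B16F0 replicate 1, both on lane 2. In B16F10 replicate 2 the skeletal muscle list stood apart too, at 910 CPM. Cnn1 was at 0.524 CPM in B16F0 replicate 5, a value that rests on few reads. These are 6 of 30 groups of libraries compared. The critical value marks about 1 in 20 by chance where values are normally spread and groups are independent. The CPM were not transformed and the groups share libraries, so that rate need not hold here.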

How the results depend on the processing

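The count of markers called between the tumour lines was 0 in 24 of 28 other settings. It was 2 with DESeq2 (Cspg4 0.95 and Notch3 1.46), 1 with limma-voom (Notch3 2.11), and 0 to 1 with single libraries left out, where the fold change (log2) of Cspg4 ran from 0.61 to 1.13 and that of Notch3 from 1.02 to 1.95. Signs of Acta2, Myh11 and Tagln turned without lane 2 (-0.25, -0.28 and -0.33), with the background reads as a covariate (-0.15, -0.34 and -0.42) and with the name prefix in place of lane (-0.26, -0.27 and -0.33), as did that of Kcnj8 with the background reads (-0.11). Leaving out B16F10 replicates 1 and 2 (-0.25, -0.28 and -0.33) or B16F0 replicate 1 is the comparison without lane 2 again. With the name prefix, too, the difference between the lines comes from lanes 1 and 6 alone. With single libraries left out the values ran from -0.26 to 0.64 for Acta2, -0.29 to 0.75 for Myh11 and -0.34 to 0.37 for Tagln. The lowest values of Pdgfrb, Rgs5, Cspg4, Notch3 and Des over 28 settings were 0.53, 0.13, 0.33, 0.88 and 0.20, all with the background reads as a covariate. The lane count of 4 became 2 without lane 2 (14.6% of all genes), 0 without the 2 libraries rich in Rn45s, a ribosomal RNA precursor (0%), 1 without B16F10 replicates 1 and 2 (5.6%), and 0 to 8 with single libraries left out. It was 6 with DESeq2 (19%), with library totals (8.2%), with no filter on low counts (3.65%) and with the background reads as a covariate (15.9%). The interaction count of 0 became 1 with no filter on low counts, 3 with DESeq2 and 7 when the 3 libraries with the top endothelial scores were left out. The count of 1 for the endothelial score, Kcnj8, became 0 without those 3 libraries, where 0 of all genes passed, and 0 to 1 with single libraries left out. Without those 3 libraries the slopes of Smtn (-0.21) and Pdgfb (-0.12) turned. The settings with background reads, with the name prefix and without B16F10 replicates 1 and 2 were chosen after seeing the data. The causes were not tested.

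Replicate numbers 1 to 5 occur in both tumour lines. Same-numbered libraries did not deviate together for numbers 1 to 4 (r of -0.28, -0.27, -0.24 and -0.28), but those numbered 5 had r of 0.32. The numbers are not stated to mark a shared animal or day, so the main fit did not use them. A fit with the replicate number as a block in place of lane called 0 markers between the lines, and 0 for the endothelial score (Kcnj8 slope 1.01, edgeR adjusted p = 0.116). Cnn1, Myocd and the keratinocyte genes had too few reads to pass the filter on low counts.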
